A study of Rattus norvegicus with 10 samples.

Results

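The complement gene Cd55 and its partners were followed on arrays of the rat hypothalamic paraventricular nucleus after dehydration. The set held 9 genes: Cd55, Cd59 and Cd46, whose products protect host membranes, the C1q chain genes C1qa, C1qb and C1qc, the protease gene C1s, the C1 inhibitor gene Serping1, and C3. They were chosen by their place in the complement system and by the dehydrated against control differences of these same arrays, which were known. Those differences are therefore given as a description, with no p-value, and whether a member was among the probe sets called in the fit of the whole array is stated without being read as support. Members were taken as probe sets (groups of short probes for 1 transcript) whose array annotation gives exactly 1 gene symbol equal to a member. This found 8 of the 9 genes, with 9 probe sets, among 14217 genes and 20826 probe sets with a single symbol. Cd59 had no probe set under that symbol. The RefSeq gene table lists Cd59 as a synonym of Cd59b, which the array does carry and which is described among the other regulators.

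Complement is a cascade of blood and tissue proteins that marks surfaces for removal. C1q, built from the A, B and C chains, binds the target and activates the proteases C1r and C1s. C1 inhibitor blocks those proteases, and C3 is cleaved by the enzyme complexes (convertases) that follow. Cd55, or decay-accelerating factor, speeds the decay of the convertases. Cd46 is a cofactor for the cleavage of their deposited parts and is found in rodents mainly in the testis, and Cd59 blocks the final membrane pore. In brain, microglia are the main source of C1q, which is known for tagging synapses.

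The study compared male Sprague Dawley rats of 10 to 12 weeks, dehydrated for 3 days or kept as controls. Each group had 5 pools of tissue from 5 animals each, so the 10 Affymetrix Rat Genome 230 2.0 arrays stood for 50 animals, and no line, transgene or other agent is named. Sample labels name the paraventricular nucleus, while the design text at one point names the supraoptic nucleus. The labels were followed. Of the genes listed here as paraventricular, vasopressin, oxytocin, Crh, Trh and Sim1 lay above the filter described next, and Otp, Pou3f2 and Nos1 lay under it. The lateral hypothalamic genes Hcrt and Pmch were also above it. Whether these signals tell the paraventricular and supraoptic nuclei apart was not tested. Signals are linear, in arbitrary units, as deposited. Log2 values are log2(signal + 3.72), probe sets with a mean signal of 24.1 or more over all arrays were tested, and SE is that of the limma fit over 18629 probe sets. In that fit 108 probe sets (0.58%) had a Benjamini-Hochberg adjusted p under 0.05 and are termed called, 0.397% of all tested being higher and 0.183% lower in dehydrated pools. With array medians centred the split was 46 higher and 26 lower, against 74 and 34. Except for control replicate 5, the sample titles of a group are numbered in a row. What these numbers stand for is not stated. If they follow the order of processing, that order and group cannot be told apart. Control replicate 5 also had the lowest array weight, 0.385.

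Of the 9 member probe sets, 7 passed the filter, 1 for each of 7 genes. Among those 7, 1 was called higher, 0 lower and 6 were not called, beside 0.58% called over all probe sets. It was the brighter probe set of Cd55. The groups failed to overlap in 1 of the 7, the same Cd55 probe set, where the same held for 3.36% of the probe sets in the fit, 1.94% with dehydrated pools higher and 1.42% lower. Because the members were chosen with this contrast known, nothing is read from these shares.

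Promoter sequence is shown for Cd55, as the member whose groups separated, and for C1qa and C1qb, whose products share 1 protein and whose groups overlapped. C1qb, C1qc and C1qa are neighbours on chromosome 5 in the RefSeq table of assembly GRCr8. Each sequence below is the 250 bases before the transcript start in the RefSeq promoter table (GRCr8), 5′ to 3′ on the gene's strand, which is the minus strand for all 3. The regions are chr13:44438102-44438351 for Cd55, chr5:154419934-154420183 for C1qa and chr5:154407828-154408077 for C1qb. For Cd55 the gene's outer edge in the RefSeq table lies 812 bases further upstream than the start used here, so longer transcripts may begin there. That table held 5 of the members, Cd55, Cd46, C1qa, C1qb and C3. Capitals mark every match, on either strand, to 7 motifs.
Cd55: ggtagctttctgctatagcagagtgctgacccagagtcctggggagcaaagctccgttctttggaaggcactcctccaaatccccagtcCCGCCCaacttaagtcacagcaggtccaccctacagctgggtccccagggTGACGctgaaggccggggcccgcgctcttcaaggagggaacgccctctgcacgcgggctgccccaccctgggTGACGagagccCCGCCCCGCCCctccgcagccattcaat
C1qa: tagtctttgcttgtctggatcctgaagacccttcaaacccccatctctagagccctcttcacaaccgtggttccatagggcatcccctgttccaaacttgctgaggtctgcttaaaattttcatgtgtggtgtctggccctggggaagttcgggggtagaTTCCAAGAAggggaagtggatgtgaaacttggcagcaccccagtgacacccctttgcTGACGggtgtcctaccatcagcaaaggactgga
C1qb: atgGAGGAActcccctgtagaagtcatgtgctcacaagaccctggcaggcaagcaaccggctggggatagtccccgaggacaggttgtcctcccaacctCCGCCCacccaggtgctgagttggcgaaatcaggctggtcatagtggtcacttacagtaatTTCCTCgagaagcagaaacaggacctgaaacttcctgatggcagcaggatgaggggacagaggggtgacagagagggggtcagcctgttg

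In the Cd55 window, the cyclic AMP response half-site TGACG began 111 and 39 bases before the start, and the GC box GGGCGG (read as CCGCCC) began 161, 28 and 23 bases before it, the last pair overlapping by a base. The half-site was found in 18.2% and the GC box in 30.5% of 33469 promoter windows of the same length. The window held 13 CpG dinucleotides, against a median of 5 over all windows. C1qa held 1 half-site, 33 bases before its start, and 1 match to the STAT motif TTCNNNGAA, 90 bases before it, a motif found in 7.67% of windows. C1qb held 2 matches to the PU box GAGGAA, a purine-rich motif bound by the myeloid factor PU.1, which began 247 and 90 bases before the start, and 1 GC box. PU boxes occurred in 23.3% of windows. The full cyclic AMP response element TGACGTCA (1.59% of windows, and containing the half-site), the AP-1 motif TGANTCA (6.34%) and the TATA box TATAAA (12.9%) had no match in these 3 windows. These are matches of letters, and binding was not measured.

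Cd55 was higher in every dehydrated pool than in any control pool. At the brighter of its 2 probe sets the signals of the 5 dehydrated pools were 127.6, 129.3, 181.1, 118.0 and 135.6, and those of the 5 control pools were 82.1, 62.5, 64.0, 105.9 and 63.2. Dehydrated replicate 3 was the highest of its group, and control replicate 4 came nearest to the dehydrated pools. The group means were 138 ± 24.7 and 75.5 ± 18.8 (SD, n = 5 each). On the log2 scale the groups differed by 0.86 ± 0.15 (SE), or 1.81-fold. Leaving out single arrays gave log2 differences of 0.76 to 0.98. In the fit without a variance trend this probe set was not among those called.

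The dimmer Cd55 probe set had a mean under the filter and was not tested. Its signals were 22.0, 23.7, 26.3, 26.6 and 16.6 in dehydrated and 13.5, 8.9, 10.6, 12.3 and 14.2 in control pools. These groups did not overlap either, where 0.951% of the 12413 probe sets under the filter had dehydrated pools above all controls. The log2 difference was 0.77 ± 0.20 (SE), close to that of the brighter probe set, and 0.50 at 4 times the pseudocount, which weighs most on dim signals. Both probe sets stand for 1 gene and were measured on the same pools, so they are not separate replicates. After each group mean was taken off, their pool values correlated at r = 0.26 over 10 pools. Dehydrated replicate 3 was high at both, while dehydrated replicate 5 was the lowest of its group at the dimmer probe set and the next to highest at the brighter one.

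**Figure D1:**
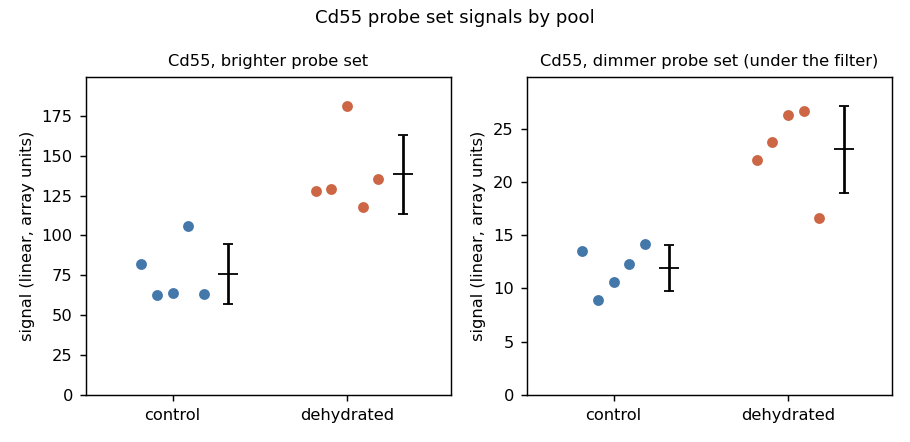
Signals of both Cd55 probe sets in linear array units for 5 control (blue) and 5 dehydrated (orange) pools, with the mean and SD as black bars. Dehydrated pools sit at 118.0 to 181.1 against 62.5 to 105.9 at the brighter probe set, and at 16.6 to 26.6 against 8.9 to 14.2 at the dimmer one, which lies under the filter.

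Markers of the cell types in the tissue were read beside Cd55. Of 8 tested paraventricular neuron genes, 2 were called higher, prodynorphin (Pdyn, log2 0.81 ± 0.10 (SE), adjusted p = 5.7e-04) and Vgf (0.62 ± 0.06, adjusted p = 6.2e-05) by limma, and 6 did not pass. Among those that did not, Avp was at 0.50 ± 0.11 (SE, adjusted p = 0.0504), and passed in 5 of 19 alternatives. Oxt was at 0.245 ± 0.08 (adjusted p = 0.218) and Sim1 at 0.35 ± 0.17 (adjusted p = 0.414). All 8 differences were positive, with a median of 0.30, beside a median of -0.005 over all tested probe sets. Their summed signal, most of which is Avp and Oxt, was 12979.5 to 16290.0 in dehydrated and 10761.1 to 12935.4 in control pools. Otp, under the filter, had means of 14.2 in dehydrated and 5.66 in control pools. Its groups did not overlap (log2 0.98 ± 0.26 (SE)). Of 12 endothelial genes none (0) was called by limma, 2 had an unadjusted p under 0.05, and 9 differences were positive, with a median of 0.15. The transporter gene Slco1a4 was at 0.28 ± 0.07 (SE, adjusted p = 0.0919, with groups that did not overlap), and passed without control replicate 5 (0.0250) and with array weights (0.0335). A dimmer tested Slco1a4 probe set was at 0.08 ± 0.16 (SE, adjusted p = 0.869 by limma), with groups that overlapped. The endothelial sums overlapped, at 1663.0 to 1823.3 in dehydrated and 1365.0 to 1846.6 in control pools. The part of these cell types in the Cd55 difference was not tested. In pooled tissue, a change in the number of cells of a type and a change in RNA per cell cannot be told apart.

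Cd46 signals were near the bottom of the range. They were 17.3, 5.0, 20.3, 4.6 and 7.0 in dehydrated and 12.9, 11.8, 1.7, 1.0 and 0.7 in control pools. The groups overlapped, both spread widely, and the probe set was under the filter. Its log2 difference of 0.75 ± 0.44 (SE) ranged from 0.33 at 4 times the pseudocount to 1.22 at 0.25 times it.

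The C1q chains showed no common difference. C1qa, the A chain, had signals of 225.9, 276.9, 357.8, 295.4 and 272.1 in dehydrated and 284.7, 267.3, 292.3, 290.1 and 289.1 in control pools. The means of 286 ± 47.8 and 285 ± 10.1 (SD, n = 5 each) were almost equal, and the spread was wider in the dehydrated group, where replicate 3 was highest and replicate 1 lowest. C1qb, the B chain, had 57.3, 74.3, 60.8, 58.3 and 83.0 in dehydrated and 84.6, 69.0, 63.2, 81.6 and 112.9 in control pools. Of the dehydrated pools 3 lay under the lowest control, control replicate 5 was the highest of all, and the groups overlapped (log2 -0.27 ± 0.15 (SE), and -0.16 without that array). C1qc, the C chain, had 90.3, 97.0, 105.4, 97.2 and 130.9 in dehydrated and 105.3, 83.2, 90.7, 100.1 and 107.0 in control pools. Its groups overlapped nearly fully apart from dehydrated replicate 5 (log2 0.09 ± 0.11 (SE)). The C1qa difference was -0.01 ± 0.09 (SE) and took either sign as arrays were left out, from -0.09 to 0.07.

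Microglial markers gave the background for the C1q chains. Of 13 tested microglia and macrophage genes none (0) was called by limma and 3 had an unadjusted p under 0.05, where 12.7% of all probe sets did. Of these genes 10 were negative, with a median of -0.09. Their summed signal was 2712.6 to 3237.4 in dehydrated and 2779.8 to 3172.3 in control pools, so the groups overlapped. Ctss made up the largest part of that sum, with means of 1655 in dehydrated and 1478 in control pools. The sum without Ctss was not taken, so the overlap does not speak for the other genes. Cx3cr1, Cd68, Ptprc and Cybb were under the filter on this array, and so was Itgam, a chain of the receptor for cleaved C3. Aif1, a calcium-binding protein of microglia, differed by -0.42 ± 0.11 (SE, adjusted p = 0.088, with 0.0224 to 0.192 over the alternatives), and Laptm5 by -0.49 ± 0.15 (adjusted p = 0.159). Ctss, the brightest of the tested genes, went the other way, at 0.16 ± 0.07 (adjusted p = 0.373). Dimmer tested probe sets of Aif1 and Laptm5 were at -0.11 ± 0.27 and -0.22 ± 0.14 (adjusted p = 0.894 and 0.535). Among 5 perivascular macrophage genes 0 were called and 0 had an unadjusted p under 0.05.

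The protease gene C1s and the inhibitor gene Serping1 had lower means in dehydrated pools, with groups that overlapped and no call. C1s had 53.6, 82.0, 52.6, 63.6 and 68.6 in dehydrated and 88.4, 94.5, 102.9, 76.9 and 67.6 in control pools. Of the dehydrated pools 3 lay under the lowest control, which was replicate 5, and dehydrated replicates 2 and 5 lay within the control range (log2 -0.41 ± 0.14 (SE)). Serping1, the inhibitor, had 26.4, 28.5, 28.4, 24.0 and 34.1 in dehydrated and 32.9, 34.3, 46.0, 29.5 and 26.6 in control pools. Its groups overlapped, with control replicate 3 apart at the top (log2 -0.22 ± 0.16 (SE), and -0.11 without that array). C1r, the partner protease of C1s and not a member, had means of 59.3 ± 8.27 and 68.2 ± 11.3 (SD, n = 5 each) and differed by -0.19 ± 0.13 (SE, adjusted p = 0.576).

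C3 had 46.9, 42.8, 54.9, 71.4 and 43.8 in dehydrated and 74.8, 60.4, 80.7, 62.0 and 59.3 in control pools. Of the dehydrated pools 4 lay under the lowest control and replicate 4 lay within the control range (log2 -0.37 ± 0.14 (SE)). C3, C1s, C1qb and Serping1 kept a negative difference under every alternative run, with C3 at -0.48 to -0.30 and C1s at -0.50 to -0.34 as arrays were left out. None of these members, nor C1qa or C1qc, was called under any alternative fit run. In the same pools, 13 astrocyte genes had summed signals of 18338.8 to 20672.1 in dehydrated and 18366.3 to 20915.8 in control pools, and 12 genes of pericytes, smooth muscle and meninges 825.4 to 1806.5 and 891.9 to 1239.4. The largest part of the latter sum was Ptgds, at 325.0 to 1285.5 in dehydrated and 411.9 to 653.3 in control pools. Both lists had 0 called by limma, with 4 and 3 at an unadjusted p under 0.05. Of the astrocyte genes 5 were positive and 8 negative (median -0.09), and of the pericyte and meningeal genes 8 were positive and 4 negative (median 0.08). Among astrocyte genes Gfap differed by -0.38 ± 0.09 (SE, adjusted p = 0.0553, with 0.0192 to 0.170 over the alternatives) and the gap junction gene Gjb6 by 0.22 ± 0.09 (adjusted p = 0.304). Among meningeal genes Lum was at -0.45 ± 0.16 (adjusted p = 0.248) and the collagen gene Col3a1 at 0.24 ± 0.14 (adjusted p = 0.467). Of 11 oligodendrocyte genes 1 was called lower, Ermn (log2 -0.63 ± 0.12 (SE), adjusted p = 0.0255 by limma), 8 had an unadjusted p under 0.05, and the sums of 6931.2 to 7191.7 in dehydrated and 7472.0 to 8991.9 in control pools did not overlap. The Ermn call was lost without a filter (adjusted p = 0.0640), without the variance trend (0.0942), and without control replicate 2 (0.0792) or dehydrated replicate 3 (0.0549) or 4 (0.0650). Of 6 genes of neighbouring hypothalamus 0 were called by limma, 4 had an unadjusted p under 0.05, all of them negative, and the median was -0.43. These 4 were Hcrt (-1.28 ± 0.44 (SE)), Hdc (-0.67 ± 0.19, groups that did not overlap), Nkx2-1 (-0.50 ± 0.16) and Lhx1 (-0.36 ± 0.15), with adjusted p from 0.135 to 0.320. Their summed signal, most of which is Pmch, overlapped, at 3551.3 to 6221.0 in dehydrated and 4350.9 to 7227.4 in control pools. The part of these cells in the C3 and C1s differences was not tested. Globin was called lower (Hbb, log2 -0.67 ± 0.13 (SE), adjusted p = 0.0305 by limma). The Hbb call was lost without control replicate 1, 2 or 4 or dehydrated replicate 1, 3 or 4 (adjusted p of 0.0536 to 0.0842), without a filter (0.0849) and without the variance trend (0.126). Alas2, the other tested blood cell gene, was at -0.38 ± 0.22 (adjusted p = 0.477), with groups that overlapped. Another 6 blood cell genes were under the filter. Blood in the tissue was not measured apart from these arrays.

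**Figure D2:**
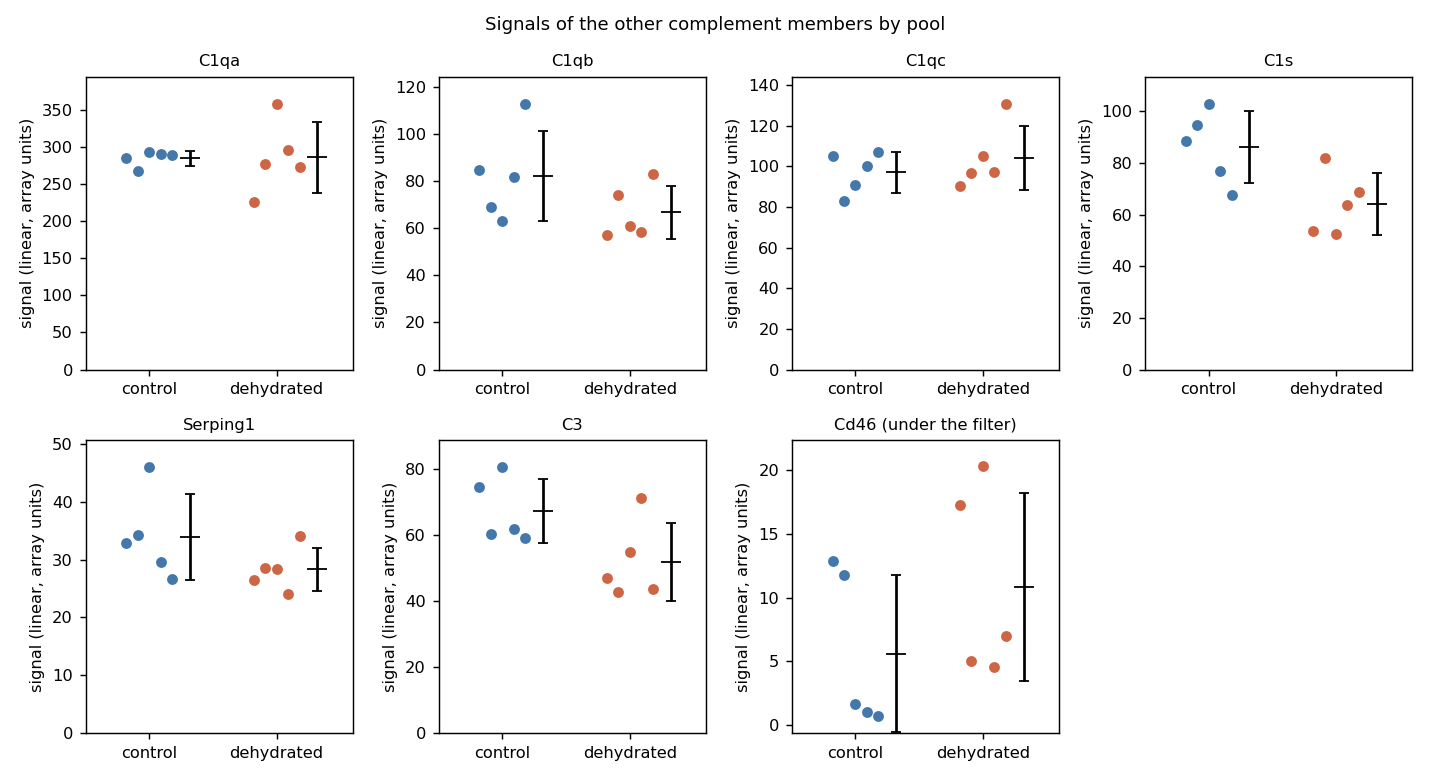
Signals of the other 7 members in linear array units for 5 control (blue) and 5 dehydrated (orange) pools, with the mean and SD as black bars. The groups overlap in all 7, and in C3 4 of 5 dehydrated pools lie under the lowest control of 59.3.

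Complement genes outside the 9, with Cd59b counted among them, did not show a common difference. Of 56 listed symbols of components, regulators and receptors 41 were on the array and 19 were tested. By limma 0 were called, 1 had an unadjusted p under 0.05, and 12 were positive and 7 negative, with a median of 0.02. Among 7 components the differences ran from -0.19 to 0.25. The lectin pathway genes Masp1 and Colec11 were at -0.17 ± 0.12 and 0.21 ± 0.17 (SE, adjusted p = 0.570 and 0.629). Of the 17 components on the array, 10 were under the filter, among them C5, C6 and C9 of the terminal pathway.

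Among 6 other regulators the differences ran from -0.12 to 0.18. Cd59b had means of 881 ± 59.9 (dehydrated) and 814 ± 119 (control), as SD over n = 5. It differed by 0.12 ± 0.09 on the log2 scale (SE, adjusted p = 0.593 by limma). Its lowest pool was control replicate 5, at 620.0, and the groups overlapped. Cr1l, the rodent convertase regulator Crry, had 222 ± 27.8 and 211 ± 22.1 (SD, n = 5 each), and differed by 0.07 ± 0.10 (SE, adjusted p = 0.795). A second Cr1l probe set under the filter had 9.0 to 15.5 against 15.8 to 24.6, a log2 difference of -0.50, opposite in sign to the brighter one. Clusterin (Clu), a chaperone that inhibits the membrane pore, was at -0.12 ± 0.06 (adjusted p = 0.397).

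Among 6 receptors and binding partners, each taken by its brightest probe set, the largest difference was that of Cd93. Cd93 is a surface protein of endothelial and myeloid cells first described as a C1q receptor. Its signals were 52.9, 34.9, 43.1, 37.7 and 42.4 in dehydrated and 20.6, 16.2, 27.7, 25.8 and 31.2 in control pools. The groups did not overlap, and the log2 difference was 0.73 ± 0.17 (SE, adjusted p = 0.0684), which did not pass. It passed without control replicate 5 (adjusted p = 0.0358) and with array weights (adjusted p = 0.0374), within a range of 0.0358 to 0.164 over the alternatives. A second Cd93 probe set under the filter did not follow it, at a log2 difference of -0.04. The next largest difference of the 6 was that of Adgre5, at 0.37 ± 0.18 (SE, adjusted p = 0.403 by limma). Its means were 62.1 in dehydrated and 47.1 in control pools, and its groups overlapped. A dimmer tested probe set of Lrp1 was at 0.97 ± 0.41 (SE, adjusted p = 0.336), with groups that overlapped, where the brighter one was at -0.03. The anaphylatoxin receptor genes C3ar1 and C5ar1 were under the filter, C3ar1 with means of 8.66 in dehydrated and 10.9 in control pools.

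**Figure D3:**
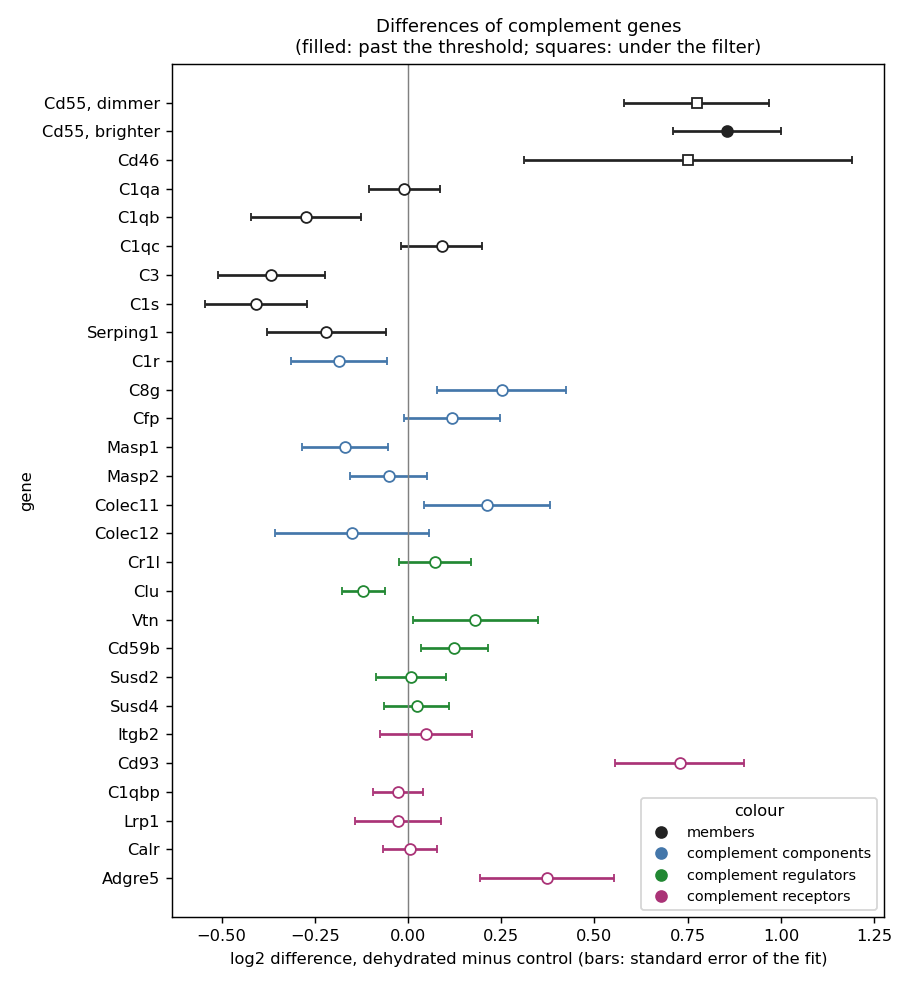
Log2 differences (dehydrated minus control, x axis) with the SE of the fit for the 9 member probe sets (black) and 19 tested components, regulators and receptors. Filled symbols are called and squares lie under the filter: the brighter Cd55 probe set at 0.86 is the filled one, and C1s at -0.41 is the lowest.

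In related gene groups no gene was called in the main fit. Of 17 genes of glycosylphosphatidylinositol (GPI) anchor synthesis, the lipid anchor of Cd55 and Cd59, 0 were called by limma and 1 had an unadjusted p under 0.05, with 11 positive and a median of 0.03. Pigq, of the first step of that synthesis, was at -0.27 ± 0.10 (SE, adjusted p = 0.245). Of 8 genes with a C1q domain outside complement, such as the synaptic organiser C1ql3 (-0.37 ± 0.23, adjusted p = 0.524), 0 were called and 1 had an unadjusted p under 0.05. That gene was C1qtnf5, at -0.275 ± 0.11 (SE, adjusted p = 0.312). Dimmer tested C1qtnf4 probe sets were at -0.83 ± 0.22 (adjusted p = 0.107) and 0.10 ± 0.22, beside -0.16 at the brightest. A dimmer Cbln2 probe set, with groups that did not overlap, was at 0.63 ± 0.20 (adjusted p = 0.178), beside 0.15 at the brighter one. Of 24 interferon and acute phase genes 0 were called by limma, 6 had an unadjusted p under 0.05 and 18 were positive (median 0.09). Another 10 were under the filter. Among these, Lcn2 had means of 32.7 in dehydrated and 15.4 in control pools, with groups that did not overlap (log2 0.91 ± 0.19 (SE)). The interferon regulator Irf7 had 86.7, 98.7, 79.4, 82.5 and 92.1 in dehydrated and 77.9, 63.1, 62.2, 49.7 and 51.0 in control pools. Its groups did not overlap, and it differed by 0.52 ± 0.12 (SE, adjusted p = 0.0677, and 0.0342 without control replicate 1, the lowest of a range up to 0.155). Isg15 and Gbp2, both induced by interferon, were at 0.55 ± 0.20 and 0.55 ± 0.15 (adjusted p = 0.274 and 0.118). With Mx2 (0.51 ± 0.20, adjusted p = 0.301 by limma), these are the genes of the list with the smallest p. Other genes of the list differed less or went the other way. Mx1 was at -0.05 ± 0.18, Oas1a at 0.05 ± 0.17 and Psmb8 at -0.21 ± 0.18 (SE). Of the 24 genes 6 were negative.

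Deviations of the pools from their group means, which do not hold the dehydration difference, showed how far the members varied together. Over 10 pools the 21 pairs of tested member probe sets had Pearson r from -0.56 to 0.75, with a median of 0.02 and 12 pairs above 0. C1qb and C1qc were the most alike, at 0.75, and stayed at 0.69 to 0.84 with each array left out. C1qa was less like them, at 0.02 with C1qb and 0.28 with C1qc. C1s and Serping1, the protease and its inhibitor, were at 0.64. C1s was also at 0.80 with the mean of the 13 microglial markers, where C1qa was at -0.49, C1qb at -0.12 and C1qc at -0.11. The C1qa value rested on dehydrated replicate 3, without which it was 0.01, and was -0.02 with median centring. The brighter Cd55 probe set was at -0.09 with those markers, and ran from -0.39 to 0.41 as arrays were left out. All values of a pool come from 1 array and share its scaling, so these figures are descriptions.

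**Figure D4:**
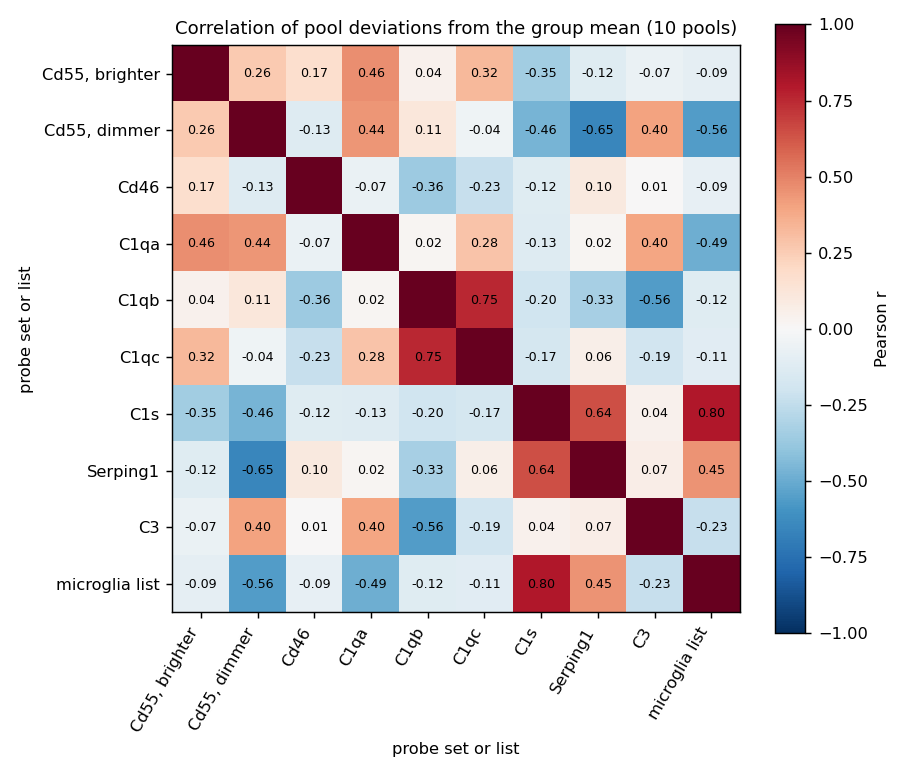
Pearson r between member probe sets, and with the mean of 13 microglial markers, after each group mean is taken off (10 pools, colour scale from -1 to 1). C1qb and C1qc stand at 0.75, C1s and the microglia list at 0.80, and the brighter Cd55 probe set and that list at -0.09.

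Genes most like Cd55 were sought among 13587 other tested probe sets with 1 symbol. On values as they stood, which hold the group difference, the highest Pearson r over 10 pools were those of Tmem183a (0.95), Procr, the endothelial protein C receptor (0.95), Fkbp1a (0.94), Stk39 (0.93) and Tor4a (0.92). Of these 5, Fkbp1a was called by limma (log2 0.32 ± 0.05 (SE), adjusted p = 0.0078). With group means taken off the highest were Nipbl (0.95), Zfp644 (0.91), Lrp3 (0.91), Prps2 (0.91) and Emc6 (0.90), none of them in the first list. For the mean of the C1q chains they were Cdkn2aip (0.93), Tmem59 (0.92), Srprb (0.91), Pik3c2b (0.90) and Kctd20 (0.90), and no marker of microglia was among these 5.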

How the data were processed

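RNA pools of the paraventricular nucleus were measured on 10 arrays, 5 per group. The deposited values are linear probe set intensities (signals), and the submitters' processing notes name GCOS 1.2. How background was handled, and which signal algorithm was used, is not given in the sources used here. Array medians ran from 36.4 to 39.1, so the authors' arrays were used as deposited with no further scaling. Of 31099 probe sets, 57 controls, which held the 2 missing values, were left out. No count depth applies, and the number of arrays limits the precision.

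Groups were compared on log2(signal + 3.72), the pseudocount being 0.1 of the median array median, with lmFit and eBayes (trend) of limma 3.58.1 in R 4.3.3. The filter was the 40th percentile of mean signal (24.1), which left 18629 probe sets across all genes, with Benjamini-Hochberg adjustment over them, two-sided, at 0.05. Members under it take their SE from a fit without the filter. The members and lists were chosen with earlier results of these data known. Lists are described by counts and medians, with a gene's brightest tested probe set standing for it. Named are all member probe sets, up to 4 genes of each list with the smallest p, a few genes fixed by name, and the 5 most alike. Replicates were numbered in accession order. On simulated arrays of this comparison with 18629 probe sets, the fit recovered 36.4%, 85.1% and 98.5% of true log2 differences of 0.4, 0.8 and 1.6. Alternatives were other scalings, pseudocounts, filters, variance models and array weights, and each array left out. No 2 arrays were identical, and pairwise r ran from 0.961 to 0.986. Names, and the promoter sequences of assembly GRCr8, are from RefSeq.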

Additional observations from a re-analysis of the deposited data

Results flagged for a closer look

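No member probe set had a pool that stood apart from the other 4 of its group by Dixon's ratio on the log2 values, the gap to the nearest pool over the group's range, with a critical value of 0.71. On linear signals, a scale added after seeing the data, dehydrated replicate 3 of the brighter Cd55 probe set passed it (0.721, against 0.677 on the log2 scale). Signals are linear and ratios are of log2 values in what follows. Among 144 groups of 5 pools examined, members and named genes together, 10 had such a pool, where chance gives about 1 in 20. Of the complement genes, clusterin (Clu) was low in control replicate 1, at 1583.5 against 1802.3 to 1822.2 (ratio 0.922). Vitronectin (Vtn) was high in control replicate 5, at 145.5 against 72.4 to 85.9 (0.757). Itgb2 was high in dehydrated replicate 1, at 61.5 against 46.4 to 50.3 (0.715), and C1qbp was low in dehydrated replicate 3, at 417.9 against 493.5 to 522.9 (0.742).

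Among cell type markers, Aif1 was low in control replicate 5, at 87.6 against 112.4 to 113.5 (0.962), where the other controls lay close together and above every dehydrated pool. Cldn5 was high in the same pool, at 432.6 against 267.3 to 306.7 (0.715). Col3a1 was low in control replicate 1 (28.1, the next lowest being 36.2, ratio 0.714) and Ttr low in dehydrated replicate 5 (64.5 against 156.3 to 197.1, ratio 0.790). Hdc and Lhx1 were both low in dehydrated replicate 3 (22.2 against 30.5 to 31.5 and 26.8 against 36.9 to 41.2, ratios 0.906 and 0.740).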

How the results depend on the processing

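No paired analysis was possible because the labels give no replicate numbers shared by the groups. Of 142 alternative values of the member differences, 141 moved by less than the spread between pools, the exception being the dimmer Cd55 probe set at 4 times the pseudocount (0.50 against 0.77). With arrays left out the 2 Cd55 probe sets ran from 0.76 to 0.98 and from 0.70 to 0.87. All 112 alternative within-group correlations lay inside the 95% Fisher interval of the main value, which is wide at 10 pools.

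Called probe sets numbered 108 (74 higher, 34 lower), against 201 (127 and 74) with array weights, 64 (50 and 14) without a filter, 45 (38 and 7) without the variance trend, and 46 higher with median centring. With each array left out they ran from 46 to 148, the higher from 38 to 92 and the lower from 8 to 56. The lowest total was without dehydrated replicate 3 and the highest without control replicate 5. Complement genes outside the members had 0 calls, against 1 with array weights and 0 to 1 with arrays left out, and interferon and acute phase genes 0 to 1. Marker genes had 4 calls, against 8 with array weights, 2 without a filter, 2 without the trend and 2 to 7 with arrays left out. GPI anchor and C1q domain genes had 0 calls under all of these. Small differences, none called, changed sign as arrays were left out: Itgb2 ran from -0.016 (without control replicate 3; -0.014 without dehydrated replicate 1) to 0.089, C1qbp from -0.049 to 0.031 (without dehydrated replicate 3), Cd14 from -0.291 to 0.023 and RT1-Da from -0.085 to 0.264 (both turned without dehydrated replicate 4), and Tmem212 from -0.122 to 0.024 (without control replicate 2; 0.016 without dehydrated replicate 4). The causes of these changes were not tested. Signals near or under the filter, as for Cd46, limit what can be said of dim members.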
